A study of Carassius auratus with 6 samples.

Results

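Transducins are the G proteins that carry the light signal in rods and cones, and 20 of the 56251 gene models of a goldfish (Carassius auratus) eye RNA-seq table carried the names of their subunits. They were the models whose matched Swiss-Prot gene name was gnat1, gnat2, gnb1, gnb3, gngt1 or gngt2, with or without a suffix a, b or -like. The rod set held 12 models (gnat1 2, gnb1 9, gngt1 1) and the cone set held 8 (gnat2 2, gnb3 3, gngt2 3).

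Whole eyeballs of goldfish 1 winter year old gave 3 C libraries and 3 R libraries. The letters are contradictory in the labels. The sample characteristics call C normal-eyed and R celestial-eyed, after a fancy breed whose eyes point upward, whereas the design text of the series calls C celestial-eyed, from a farm in Beijing, and R normal-eyed, from a farm in Jiangsu. The phenotype of each letter was therefore not assigned here, every difference is C against R, and farm and phenotype cannot be told apart. No genotype, sex or treatment is given, and no label ties a library to a fish, so a p-value here speaks only of the spread among these 6 libraries.

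In a photoreceptor, an opsin activated by light switches on transducin, and transducin in turn activates a phosphodiesterase that lowers cGMP and closes the channels of the outer segment. Transducin has an alpha subunit that binds GTP and a beta-gamma pair that holds it in the membrane. Rods build theirs from gnat1, gnb1 and gngt1, and cones use gnat2, gnb3 and gngt2. Goldfish descend from an ancestor whose whole genome was doubled, so that many genes have a copy on each of 2 related chromosomes. In these files each of the 50 chromosomes shared more gene names with the chromosome numbered 25 apart than with any other.

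Values are FPKM, reads scaled to the length of the gene model and to the total of the library, and differences are on the log2(FPKM + 1) scale. Depth was even, at 9444623 to 11017539 reads in a C library and 9829134 to 11317200 in an R library. Of 33907 models with at least 1 FPKM in 3 or more of the 6 libraries, limma called 20.2% different between the letters at an adjusted p under 0.05, 8.67% higher in C and 11.6% lower. The median difference over these models was -0.09. Correlations between libraries were 0.946 to 0.965 within a letter and 0.862 to 0.884 between letters. In whole-eye RNA, fewer cells of a type and less RNA per cell cannot be told apart.

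Rod and cone sums of these genes overlapped between the letters, and the cone beta subunit gnb3 was lower in C. Most FPKM of the rod alpha subunit gnat1 was assigned to a different gene copy in C than in R. Of the 19 members that passed the filter, limma called 6, against a background of 20.2% of all models, with 2 higher and 4 lower in C. The called rod models were 4 of 11 (2 higher, 2 lower) and the called cone models 2 of 8 (none higher, 2 lower). The median difference was -0.05 over the 19 members, -0.03 over the rod models and -0.18 over the cone models, beside -0.09 over all models. C and R libraries did not overlap for 9 of the 19 members, beside 41.4% of all models. Among models of the table with a mean of at least 100 FPKM, where the leading members lie, 29% were called. The remaining member, the gnb1 model Cau.27G0003710, stayed under the filter and was not tested.

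Summed over its copies, each gene kept almost the same order in every library. Highest were gngt1 and gnat1 at 3617 to 5785 FPKM, then gnb1 at 1535 to 1933 FPKM, then gnat2 and gngt2 at 911 to 1685 FPKM, and gnb3 came last at 421 to 817 FPKM. The orders of gngt1 against gnat1 and of gngt2 against gnat2 were not the same in all libraries, since gnat1 was above gngt1 in C2 and gnat2 was above gngt2 in R1 and R2. Of the 6 sums, limma called only gnb3, where 19.5% of all 12827 tested name sums were called, 8.06% higher and 11.4% lower in C. Together the 20 models took 1.14% to 1.54% of the reads of a C library and 1.20% to 1.41% of those of an R library.

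**Figure D1:**
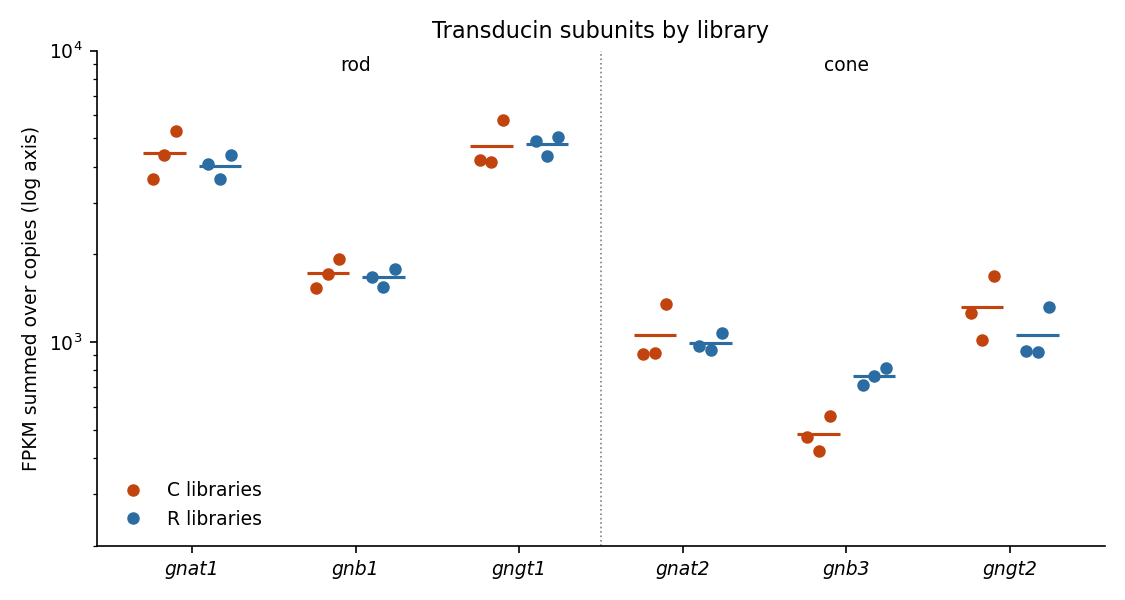
Summed FPKM of each gene (log axis) in the 3 C and the 3 R libraries, rod genes and cone genes apart, with 1 point for each library and a bar at the mean. The C and R points overlap for every gene but gnb3, for which all C points (421 to 557 FPKM) lie below all R points (714 to 817 FPKM).

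Rod and cone totals did not separate the letters. The rod sum was 9387, 10253 and 13008 FPKM in C1, C2 and C3, against 10652, 9522 and 11229 FPKM in R1, R2 and R3. The cone sum was 2636, 2357 and 3596 FPKM in the C libraries, against 2614, 2631 and 3207 FPKM in the R libraries. Both ranges overlapped widely, with C3 the highest library in each. The rod sum was 3.56, 4.35 and 3.62 times the cone sum in C1, C2 and C3, and 4.07, 3.62 and 3.50 times in R1, R2 and R3. The mean ratio was 3.84 ± 0.440 in C against 3.73 ± 0.303 in R (SD, n = 3 each). Within its letter C3 was the highest library for 13 of the 19 tested members, as was R3 within R.

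The gnat1 gene, which encodes the alpha subunit of rod transducin, showed the clearest pattern. Its 2 models lie on chromosomes 6 and 31, a pair numbered 25 apart. Cau.06G0009810 (chromosome 6, 25479398 to 25484998, plus strand) had 1182, 1295 and 1597 FPKM in C1, C2 and C3, against 3493, 3040 and 3881 FPKM in R1, R2 and R3. Every C value was under every R value, and the R mean was 2.56 times the C mean. The difference was -1.36 (SE 0.17, 95% interval -1.75 to -0.97, limma adjusted p = 0.00186).

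The other copy went the opposite way. Cau.31G0009710 (chromosome 31, 26172472 to 26182782, plus strand) had 2460, 3102 and 3692 FPKM in C1, C2 and C3, against 595, 576 and 489 FPKM in R1, R2 and R3. Every C library lay above every R library, and the C mean was 5.57 times the R mean. The difference was 2.46 (SE 0.18, 95% interval 2.04 to 2.88, limma adjusted p = 0.000211). These values rest on 96783 reads in C and 17863 in R for the chromosome 31 copy, and on 51737 in C and 137311 in R for the chromosome 6 copy. Both calls passed the threshold in all 13 other settings tried.

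**Figure D2:**
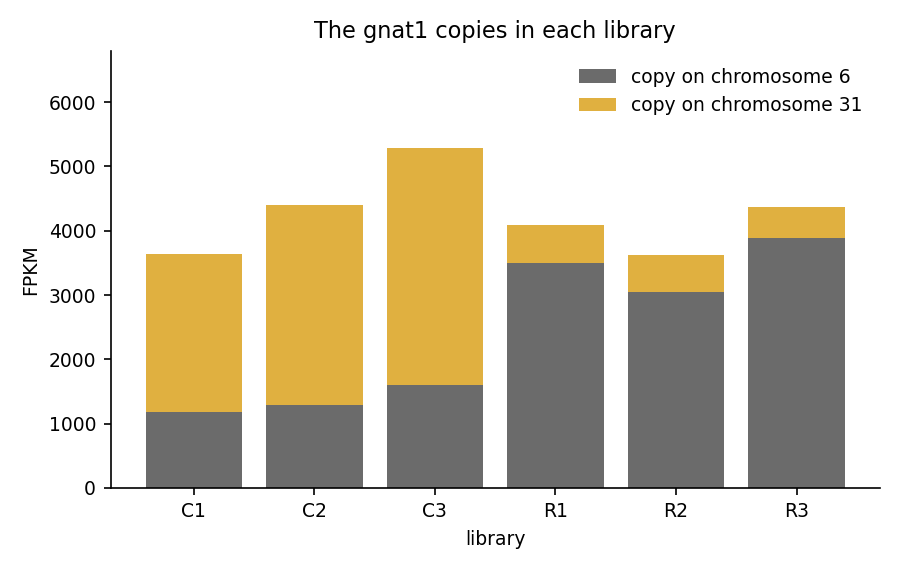
FPKM of the chromosome 6 and chromosome 31 copies of gnat1 stacked for each library, C libraries left of R libraries, with the axis starting at 0. The chromosome 31 copy makes up 67.5% to 70.6% of each C bar and 11.2% to 15.9% of each R bar, while bar heights overlap between the letters.

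In C the chromosome 31 copy held 67.5%, 70.6% and 69.8% of gnat1 FPKM in C1, C2 and C3, against 14.6%, 15.9% and 11.2% in R1, R2 and R3. The mean share was 69.3% ± 1.56 in C against 13.9% ± 2.44 in R (SD, n = 3 each). A two-sided exact permutation test of the share gave p = 0.1, the smallest that 3 against 3 libraries allow. Both copies had already separated the letters in opposite directions, which fixed this outcome, so it adds no support. Summed over both copies, gnat1 had 3641, 4397 and 5289 FPKM in C1, C2 and C3, against 4089, 3617 and 4370 FPKM in R1, R2 and R3. The sums overlapped, and their difference was 0.13 (SE 0.17, 95% interval -0.26 to 0.52, limma adjusted p = 0.618). The chromosome 6 model is 1248 bases long and the chromosome 31 model 1026, so a read adds more FPKM on the latter. In reads, gnat1 took 0.400%, 0.480% and 0.578% of C1, C2 and C3, against 0.497%, 0.439% and 0.534% of R1, R2 and R3. How the authors counted reads that match both copies is not stated in the labels or files. Whether reads of one copy were assigned to the other was not tested, and such a shift would leave the number of reads over both copies unchanged.

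How common such opposite changes are was counted only among names with a single pair of models. There were 2498 such names, with 1 tested model on each chromosome of a pair numbered 25 apart. Limma called both copies in opposite directions for 9 pairs (0.36%) and both in the same direction for 123 pairs (4.92%). Names with more models were left out, such as unc119, where Cau.15G0007950 on chromosome 15 (-1.45) and Cau.40G0007240 on chromosome 40 (1.66) were both called. The gap between the copies' differences was 3.82 for gnat1, second only to es1, and the median gap was 0.26. The 9 opposite pairs were gnat1, higd1a, aqp1, h1-10, sema3b, rflna, fam149b1, chst7 and mab21l1, and gnat1 had the highest summed level of them. Its cone counterpart gnat2 had a gap of 0.11.

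**Figure D3:**
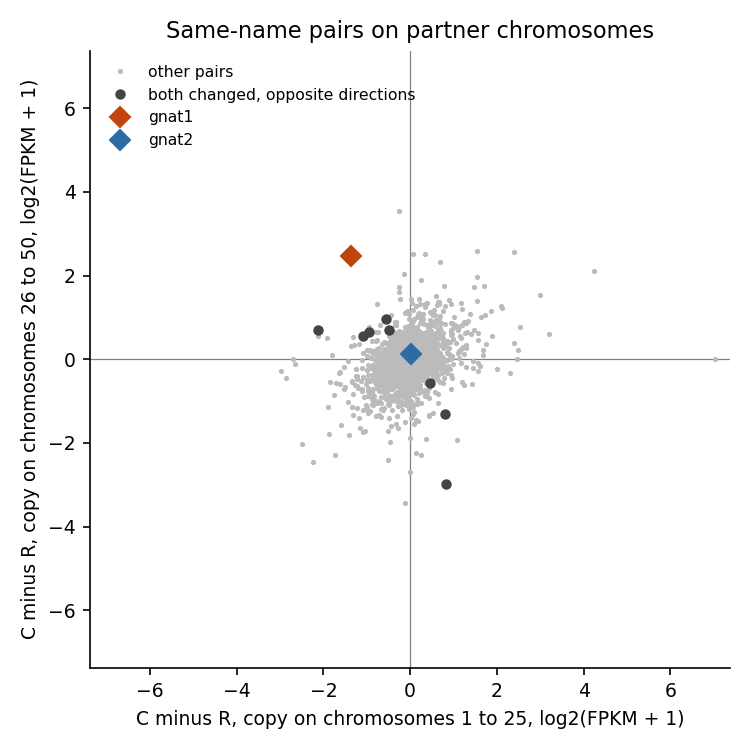
Each of the 2498 pairs of same-name models, with the log2 difference of C over R of the copy on chromosomes 1 to 25 on the x axis and that of the copy numbered 25 higher on the y axis. Pairs called in opposite directions are marked, and gnat1 lies at -1.36 and 2.46, far from the bulk of points near 0.

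The models around the gnat1 copies were called about as often as the 20.2% of all models. Among the 10 tested models on each side of the chromosome 6 copy, 4 were called higher in C and 1 lower, with a median difference of 0.08. The lower model there was edem1 (-0.49), which lies 1323 bases from gnat1. Around the chromosome 31 copy 1 was higher and 3 were lower, with a median of -0.00. These 3 were the tested models directly before gnat1, namely mst1r (-1.22), camkv (-0.53) and sema3f (-3.51).

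The beta subunit gnb1 pairs with gnat1 in rods, and it also serves many other cell types. Its leading model, Cau.33G0013770 (chromosome 33, 29852160 to 29860763, plus strand), had 1190, 1340 and 1587 FPKM in C1, C2 and C3, against 1415, 1284 and 1494 FPKM in R1, R2 and R3. The letters overlapped, with a difference of -0.03 (SE 0.15, 95% interval -0.39 to 0.32, limma adjusted p = 0.896). It held 79.3% of gnb1 FPKM in C against 83.8% in R.

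The second gnb1 model was higher in C. Cau.06G0011400 (chromosome 6, 29184211 to 29193474, plus strand) had 276, 286 and 284 FPKM in C1, C2 and C3, against 184, 180 and 211 FPKM in R1, R2 and R3. All C values were above all R values, and the difference was 0.56 (SE 0.12, limma adjusted p = 0.0167). The call was lost without R1 (adjusted p = 0.0722) and without R2 (0.0807). A far weaker model, Cau.30G0009990 on chromosome 30, was lower in C, with 7.30, 7.95 and 4.70 FPKM in C1, C2 and C3, against 9.88, 12.7 and 13.9 FPKM in R1, R2 and R3 (difference -0.80, SE 0.21, limma adjusted p = 0.0320). Its call passed in 9 of 13 other settings, and the losses included those without C1 (adjusted p = 0.0629), R2 (0.106) or R3 (0.104).

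The other 5 tested gnb1 models, Cau.31G0012610, Cau.36G0010490, Cau.11G0009310, Cau.31G0012490 and Cau.27G0003670, lay between 0.781 and 30.7 FPKM. Their differences ran from -0.19 to 0.09 and none passed the test. The 9 models share 1 matched name, and how reads were divided among near-identical copies cannot be checked here. By its description Cau.36G0010490 is beta-4-like, and it is counted as a rod model only by its matched name. The same holds for Cau.11G0009310, which is described only as an unnamed protein product. In sum gnb1 had 1726 ± 200 FPKM in C against 1668 ± 122 FPKM in R (SD, n = 3 each), a difference of 0.04 (SE 0.13, 95% interval -0.26 to 0.35, limma adjusted p = 0.844).

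The gamma subunit of rods, gngt1, had a single model and was the 13th highest of the table. Cau.44G0006370 (chromosome 44, 13425944 to 13426288, minus strand) is only 222 bases long and had 4211, 4147 and 5785 FPKM in C1, C2 and C3, against 4887, 4363 and 5073 FPKM in R1, R2 and R3. The letters overlapped, and the difference was -0.03 (SE 0.18, 95% interval -0.44 to 0.37, limma adjusted p = 0.911).

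Among cone genes, the alpha subunit gnat2 was carried in nearly equal parts by 2 copies on chromosomes 8 and 33, also numbered 25 apart. Cau.08G0007490 (chromosome 8, 14595342 to 14602454, minus strand) had 478, 469 and 718 FPKM in C1, C2 and C3, against 523, 510 and 582 FPKM in R1, R2 and R3. Cau.33G0006840 (chromosome 33, 12506127 to 12513427, minus strand) had 433, 447 and 637 FPKM in the C libraries, against 446, 429 and 494 FPKM in the R libraries. C3 was the highest library for both and the letters overlapped. The differences were 0.02 (95% interval -0.42 to 0.45, limma adjusted p = 0.956) and 0.13 (95% interval -0.28 to 0.54, limma adjusted p = 0.639). The chromosome 33 copy held 47.8% ± 0.921 of gnat2 FPKM in C against 45.9% ± 0.176 in R (SD, n = 3 each).

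The cone beta subunit gnb3, which ON bipolar cells of the mouse retina also use, was lower in C. Its leading model, Cau.19G0002950 (chromosome 19, 6080504 to 6085286, plus strand), had 427, 385 and 508 FPKM in C1, C2 and C3, against 662, 704 and 755 FPKM in R1, R2 and R3. Every C value was under every R value, with a difference of -0.69 (SE 0.15, 95% interval -1.03 to -0.35, limma adjusted p = 0.0157). The call was lost when the median ratio of all models was set to 0 (adjusted p = 0.0551), without C1 (0.0558) and without R2 (0.0638).

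Its minor copies did not pass the test. Cau.44G0001900 on chromosome 44 had 34.0, 29.5 and 39.1 FPKM in C1, C2 and C3, against 40.5, 51.3 and 48.2 FPKM in R1, R2 and R3 (difference -0.44, SE 0.15, limma adjusted p = 0.0732). Cau.16G0005670 on chromosome 16 had 10.15, 7.17 and 10.16 FPKM in the C libraries, against 11.4, 9.77 and 13.3 FPKM in the R libraries (difference -0.30, limma adjusted p = 0.249). Summed, gnb3 had 483 ± 68.5 FPKM in C against 765 ± 51.4 FPKM in R (SD, n = 3 each). The sum differed by -0.67 (SE 0.13, 95% interval -0.98 to -0.36, limma adjusted p = 0.0126). It passed the threshold in 11 of 12 other settings and missed it without R2 (adjusted p = 0.0548).

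Markers of bipolar cells were also lower in C. Of 13 tested models of the marker list vsx1, grm6, cabp5 and prkca, 6 were lower and none was higher, where 11.6% of all models were lower, and their summed level was 152 to 215 FPKM in C libraries and 222 to 285 FPKM in R libraries. Amacrine and horizontal cell markers, at 115 to 138 FPKM in C against 170 to 216 FPKM in R, had 5 of 7 tested models lower and none higher. Other marker sums also did not overlap between the letters. The cone list, which holds arr3, pde6c and the member gnat2, and in which arr3 alone summed to 3818 to 6562 FPKM in C libraries and 1782 to 2188 FPKM in R libraries, stood at 4938 to 8185 FPKM in C against 2872 to 3429 FPKM in R, with 2 of 7 models higher and none lower. Lens markers were at 8018 to 14358 FPKM in C and 16179 to 17718 FPKM in R, with 1 of 17 models higher and 9 lower, and cornea markers at 289 to 355 FPKM in C and 566 to 949 FPKM in R, with 1 of 6 higher and 3 lower. Blood markers were at 2801 to 6457 FPKM in C and 650 to 1565 FPKM in R, with 3 of 4 models higher. Mueller glia markers were at 902 to 1074 FPKM in C and 735 to 832 FPKM in R, with 4 of 8 higher and 1 lower. Of all models 8.67% were higher in C. The part of any of these lists in the gnb3 result was not tested.

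The cone gamma subunit gngt2 had 3 models whose values differed in direction. Cau.40G0010270 (chromosome 40, 22253170 to 22254586, plus strand) had 887, 715 and 1209 FPKM in C1, C2 and C3, against 664, 542 and 705 FPKM in R1, R2 and R3. The letters did not overlap, yet the difference of 0.53 did not pass the test (SE 0.21, 95% interval 0.04 to 1.02, limma adjusted p = 0.118), and it passed only without C2 (adjusted p = 0.0485). Cau.03G0016750 on chromosome 3 had 354, 296 and 462 FPKM in C1, C2 and C3, against 252, 364 and 591 FPKM in R1, R2 and R3, a spread within R wider than any gap between the letters (difference -0.05, limma adjusted p = 0.918).

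The smallest gngt2 model, Cau.12G0000210 on chromosome 12, was lower in C. It had 12.0, 8.77 and 13.7 FPKM in C1, C2 and C3, against 15.3, 21.4 and 19.002 FPKM in R1, R2 and R3, resting on 130 reads in C and 219 in R (difference -0.66, SE 0.19, limma adjusted p = 0.0435). The call passed in only 4 of 13 other settings, with adjusted p between 0.0313 and 0.146. In sum gngt2 had 1319 ± 338 FPKM in C against 1058 ± 223 FPKM in R (SD, n = 3 each), a difference of 0.31 (SE 0.22, 95% interval -0.19 to 0.80, limma adjusted p = 0.344).

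**Figure D4:**
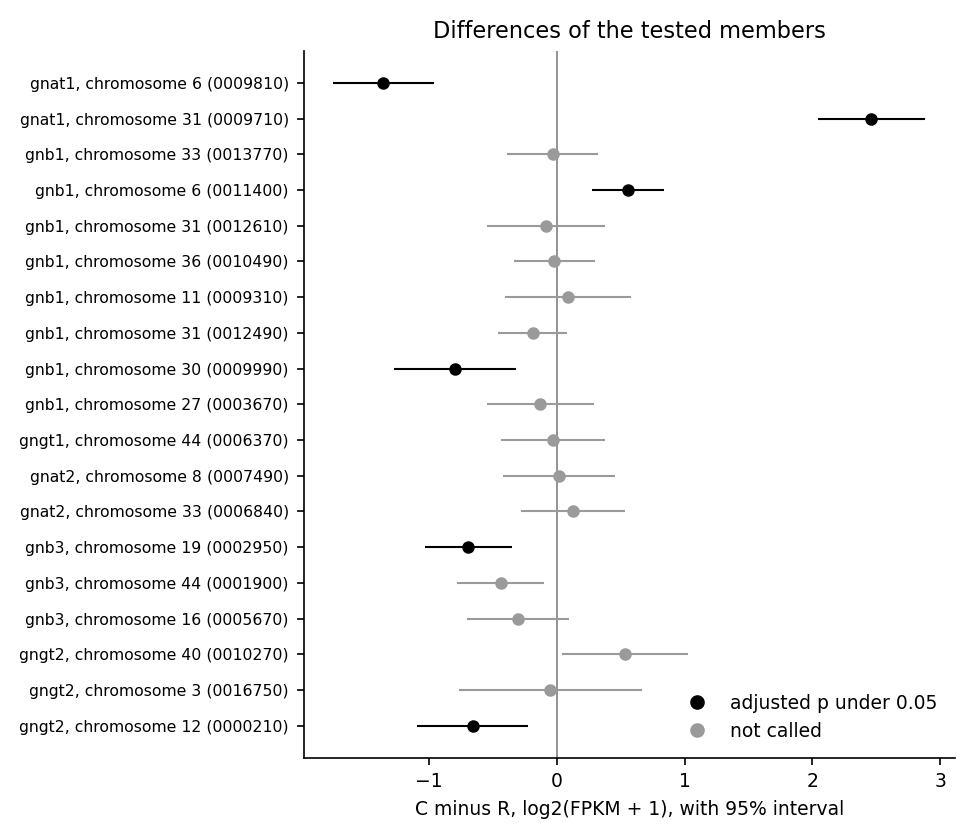
Log2 difference of C over R with its 95% interval for each of the 19 tested members, rod models and cone models apart, and called models marked. The 2 gnat1 copies stand at -1.36 and 2.46, and every other member lies between -0.80 and 0.56.

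Ratios inside a library, which no scaling of libraries can move, separated the letters where gnb3 was the divisor. Such ratios reuse the gnb3 values already called lower in C, so they are no separate support for that call. The gnat2 sum was 1.93, 2.18 and 2.43 times the gnb3 sum in C1, C2 and C3, against 1.36, 1.23 and 1.32 times in R1, R2 and R3. The gngt2 sum was 2.66, 2.42 and 3.03 times gnb3 in the C libraries, against 1.30, 1.21 and 1.61 times in the R libraries. Neither ratio overlapped between the letters. The rod partners gnat1 and gnb1 kept a ratio of 2.56 ± 0.182 in C against 2.41 ± 0.0570 in R (SD, n = 3 each), which overlapped. The gngt1 sum was 3.62 ± 0.389 times the gngt2 sum in C against 4.60 ± 0.699 times in R, which overlapped too.

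**Figure D5:**
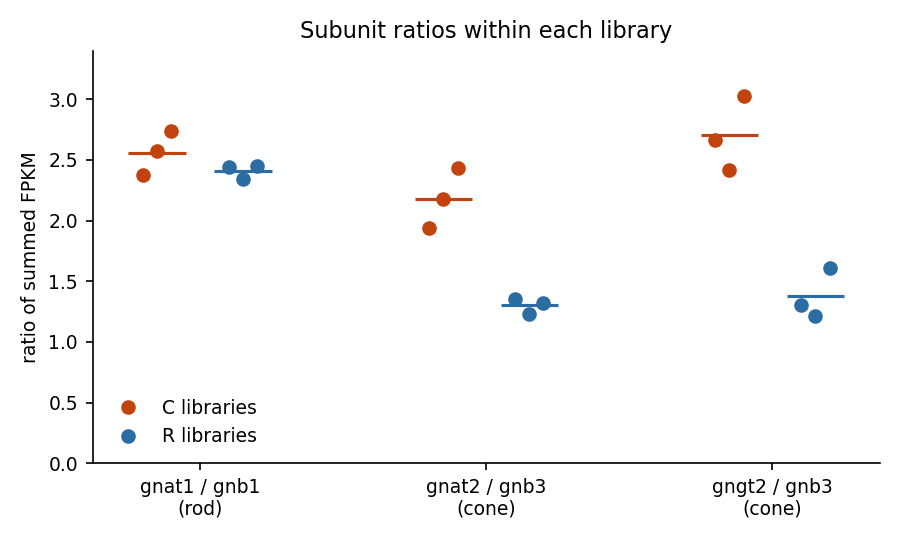
Ratios of summed FPKM between partner genes in each library, C left of R, with a bar at the mean of 3 libraries. Gnat2 over gnb3 and gngt2 over gnb3 lie higher in every C library than in any R library, while gnat1 over gnb1 overlaps.

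Genes of the light response outside the transducins were called in both directions. Of 16 rod models 3 were higher and 3 lower in C (median 0.01), and of 20 cone models 7 were higher and 1 lower (median 0.51). These are 37.5% and 40% of the models tested, beside 20.2% of all models and 29% of those with a mean of at least 100 FPKM. The rod arrestin sag, which shuts off light-activated opsin, had both copies higher in C. They were Cau.27G0003820, with 2372 ± 82.5 FPKM in C against 527 ± 40.3 FPKM in R (difference 2.17, limma adjusted p = 6.8e-05), and Cau.15G0012350, with 2912 ± 256 FPKM in C against 891 ± 45.8 FPKM in R (difference 1.71, limma adjusted p = 0.000284). Sag had a summed level of 5283 FPKM in C against 1418 FPKM in R.

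The phosphodiesterase that transducin switches on has an inhibitory gamma subunit, pde6g in rods and pde6h in cones. The chromosome 3 copy of pde6g rose to 514 ± 122 FPKM in C, against 153 ± 13.3 FPKM in R (difference 1.72, limma adjusted p = 0.00107), but the pde6g sum of 1518 ± 213 FPKM in C against 1391 ± 189 FPKM in R was not called (limma adjusted p = 0.598). The chromosome 6 copy of pde6h had 961 ± 234 FPKM in C against 83.7 ± 8.99 FPKM in R (difference 3.48, limma adjusted p = 4.51e-05), and its sum was called too, with means of 1154 FPKM in C against 252 FPKM in R.

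Cone channel and arrestin genes were also higher in C. Both copies of cngb3, a subunit of the cone cGMP-gated channel, rose, with a summed level of 116 ± 1.66 FPKM in C against 39.8 ± 3.82 FPKM in R (difference 1.52, limma adjusted p = 0.000203). The cone arrestin arr3 had a chromosome 10 copy at 3608 ± 1099 FPKM in C against 1157 ± 107 FPKM in R (difference 1.60, limma adjusted p = 0.00263). Its copies on chromosomes 35 and 39 were not called (differences 0.63 and 0.43, limma adjusted p = 0.104 and 0.223). The arr3 sum was called higher in C (limma adjusted p = 0.00676). Of the rod channel subunit cngb1, the chromosome 25 copy fell to 14.5 ± 1.20 FPKM in C, against 28.8 ± 2.72 FPKM in R (difference -0.94, limma adjusted p = 0.00222). Its chromosome 50 copy was also lower, at 4.38 ± 0.716 FPKM in C against 7.48 ± 1.75 FPKM in R (difference -0.65, limma adjusted p = 0.0450). The copies on chromosomes 18 and 43 were not called, nor was the cngb1 sum (limma adjusted p = 0.387 for the sum).

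Genes that rods and cones share for turning the response off and for handling transducin gave 17 models higher and 6 lower of 53 tested (median 0.10). That is 43.4%, beside 20.2% of all models. Through spelling the list also took in pdcl3 models. Of these Cau.34G0012860 is among the 6 lower (-1.24) and Cau.06G0010080 was not called. For guca1a, an activator of guanylate cyclase, 4 of 11 models were higher and 3 lower in C. The largest differences were 2.71 for Cau.22G0002240, 2.62 for Cau.47G0000570 and -2.21 for Cau.15G0003920, and called models on chromosomes 22 and 47 went both ways, with -2.10 for Cau.22G0001310 and -1.75 for Cau.47G0000480. The guca1a sum was 955 ± 276 FPKM in C against 951 ± 153 FPKM in R (limma adjusted p = 0.959). Phosducin, pdc, binds the beta-gamma pair of transducin. Its chromosome 27 copy had 159, 171 and 204 FPKM in C1, C2 and C3, against 61.6, 17.3 and 18.3 FPKM in R1, R2 and R3 (difference 2.67, limma adjusted p = 0.00555), and the pdc sum was 328 ± 66.7 FPKM in C against 163 ± 30.1 FPKM in R (SD, n = 3 each, limma adjusted p = 0.00929).

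Transcription factors of photoreceptors gave 5 models higher and 5 lower of 14 tested (median -0.04), or 71.4%. The 5 lower models were all rorb, and the 5 higher ones were models of neurod1, nr2e3, otx5 and samd7. Not called were the rorb models Cau.05G0015840 (26.6 FPKM in C, 27.2 in R) and Cau.30G0005700 (13.2 in C, 12.9 in R). An otx5 model, Cau.05G0013240 (difference 0.16), and a samd7 model, Cau.02G0009560 (difference -0.44), were not called either. The 4 largest changes were all models of rorb, with differences of -1.96, -1.93, -1.85 and -1.52. Rorb is a nuclear receptor needed for photoreceptor development in the mouse. The -1.93 and -1.52 models have consecutive identifiers on chromosome 33, and whether they are parts of the same gene was not tested. The -1.85 model, Cau.27G0013430, had only 0.0435 to 0.158 FPKM in C libraries and 1.21 to 5.67 FPKM in R libraries. It passed the filter only through its R libraries, so its place among the 5 lower models is no separate support. The rorb sum was 86.1 ± 16.5 FPKM in C against 201 ± 30.5 FPKM in R (SD, n = 3 each, limma adjusted p = 0.00318). Subunits of other G proteins gave 3 models higher and 3 lower of 66 tested (median -0.13), or 9.09%, under the 20.2% of all models. The largest were gng10, gnas and gna14 copies lower in C (-1.33, -1.01 and -0.76) and a gnaq copy higher in C (0.86), all between 0.854 and 43.9 FPKM. The more abundant gng10 copy, Cau.05G0003080, was called higher in C, with 107 FPKM in C against 67.9 FPKM in R (difference 0.66, limma adjusted p = 0.0332). The gng10, gna14 and gnaq sums were not called (limma adjusted p = 0.339, 0.150 and 0.595). The gnas sum was lower in C (limma adjusted p = 0.0170).

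Across the 6 libraries the profile of the chromosome 8 copy of gnat2 was most like those of efhd1 (r = 0.990), a nucleoside diphosphate kinase A-like model (0.987), rgs11 (0.983), a model with no gene name (0.981) and a pdc copy on chromosome 20 (0.979), among 8960 models with a mean of at least 10 FPKM. Among the members, gngt1 had r = 0.963 with it, the other gnat2 copy 0.953 and the leading gnb1 model 0.862. The cone partners were lower, with 0.639 and 0.611 for the 2 main gngt2 models and 0.278 for the leading gnb3 model. Other rod members were lower still. The gnat1 copies on chromosomes 6 and 31 had 0.162 and 0.129, and the second gnb1 model, Cau.06G0011400, had 0.124. The gnb1 models Cau.36G0010490 and Cau.11G0009310 had -0.850 and -0.917. The values thus do not set rod members apart from cone members. These are correlations of log2(FPKM + 1) over the 6 libraries of both letters, given as a description. Within their letters, C3 and R3 were each the highest library for 13 of the 19 tested members.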

How the data were processed

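The deposited values are FPKM for 56251 goldfish gene models in 3 C and 3 R libraries, made by the authors. Per the labels' protocols, eyes were frozen in liquid nitrogen, extracted with Trizol, and made into TruSeq libraries. The submitters' processing notes list DESeq 1.10.1, TopHat2 2.0.9 and Bowtie 0.12.5 with no role or order, and a pig genome build that the goldfish identifiers contradict. Not given in the sources used here are the assembly of the coordinates, the counting tool, its strand setting and its treatment of reads that match several copies, so overlapping antisense genes may share reads.

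FPKM times gene length gave whole reads for 100% of values (tolerance 0.01 of a read), which gave the depths. The data were tested with limma 3.58.1 (R 4.3.3; lmFit, then eBayes with trend and robust) on log2(FPKM + 1), for models with at least 1 FPKM in 3 or more of 6 libraries, with Benjamini-Hochberg adjustment over all 33907 and a threshold of 0.05. Intervals are 95%. Sums over copies of a name were tested the same way. Some models that the same rule finds are not reported here, and the rod sums leave them out. A count was read against the share of all models called. The members and gene lists were chosen with earlier results of these data known. From each list of related genes the 4 called models with the largest change are named, and every member above 1 FPKM in any library is given. Names are Swiss-Prot gene names from the file. Models named gnb1 may include related beta subunits, and Cau.36G0010490 is described as beta-4-like. Alternatives were the pseudocount, the filter, the scaling, the replicate number as a block, each library left out, and limma-voom on the recovered reads.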

Additional observations from a re-analysis of the deposited data

How the results depend on the processing

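Over the single members and name sums, 296 recomputed values kept their side of the threshold, 19 lost a call, 3 gained one and none that was called changed direction. Both gnat1 calls held in all 13 other settings. Where 6864 models were called, a refit on the 16850 models with a mean of at least 5 FPKM called 3670, and refits without a library called 3557 to 6404. The called share that was higher in C was 42.8%, but 53.4% with that filter, and 52.4% with the median ratio of all models set to 0. The 2502 called name sums became 1099 to 2819 with a library left out. The 6 called members became 2 to 7, with 3 without C1 and 2 without R2. The rod, cone and rod to cone differences stayed within the spread of the libraries.

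Same-numbered libraries of C and R deviated together with correlations of -0.0052, 0.0989 and 0.0394, against -0.112 to 0.0673 for the other combinations. So few values cannot show whether the numbers pair the fish. With the replicate block 5971 models, 2353 name sums and 4 members were called, and Cau.30G0009990 (adjusted p = 0.0557) and Cau.12G0000210 (0.0687) lost their calls. A count model on the recovered reads was not run with other tools than limma-voom, because the deposited unit is FPKM. Limma-voom, added after the data were seen, called 7349 models and 5 members. Reads limit the weakest members: the smallest gngt2 model rests on 130 reads in C and 219 in R.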

Other observations

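The chromosome 31 copy of gnat1 has a neighbour that changed in the other direction. Cau.31G0009700, a semaphorin 3F model (sema3f, a secreted guidance cue), ends 968 bases before gnat1 on the same strand. It had 3.75, 4.73 and 4.14 FPKM in C1, C2 and C3, against 61.6, 52.4 and 60.7 FPKM in R1, R2 and R3 (difference -3.51, SE 0.13, limma adjusted p = 5.99e-06), from 572 reads in C and 8260 in R. The sema3f model beside the chromosome 6 copy of gnat1, Cau.06G0009790, had 6.64 ± 0.903 FPKM in C against 7.79 ± 0.356 FPKM in R (SD, n = 3 each) and was not called (limma adjusted p = 0.309). Sema3f was picked out after its values were seen.

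The pair with a wider gap than gnat1 was es1. Its copy Cau.08G0001420 had a mean of 219 FPKM in C against 0.665 FPKM in R, while Cau.33G0001180 had 1758 FPKM in C against 1741 FPKM in R. Behind gnat1 came higd1a, whose copy Cau.02G0001110 had 51.7 FPKM in C against 28.9 FPKM in R, and whose copy Cau.27G0000140 had 0.103 FPKM in C against 7.77 FPKM in R. Aqp1, a water channel, had copies at 3.44 FPKM in C against 16.1 FPKM in R and at 196 FPKM in C against 118 FPKM in R.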
